A study of Mus musculus with 11 samples.

Results

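The genes described here are the receptors that sense extracellular nucleotides and adenosine, a channel that lets ATP out of the cell, and the cell-surface enzymes that turn ATP into adenosine. They were chosen by symbol from a list of 10 genes (P2rx7, P2rx4, P2ry2, P2ry6, P2ry14, Panx1, Entpd1, Nt5e, Adora2a and Adora2b), and the brightest probe set with that symbol alone was read for each. Of these, 8 were measured among the 19938 genes tested. The adenosine receptors Adora2a and Adora2b have no probe set with their symbol alone and were not analysed here.

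The study sorted fibroblasts from mouse mammary tissue at stages of tumour growth and profiled them on 11 Affymetrix Mouse Gene 1.0 ST arrays, each from a pooled cohort of female mice. Normal fibroblasts came from FVB/n mice without the transgene at 8 weeks (2 arrays, D2 and D5). The other stages came from MMTV-PyMT mice on the FVB/n background, in which the MMTV promoter drives the polyoma middle T oncogene in mammary epithelium: hyperplasia at 4 weeks (3 arrays, D6, D7 and D12), carcinoma at 9 weeks (3 arrays, D3, D4 and D10) and advanced carcinoma at 12 weeks (3 arrays, D8, D9 and D11). The fibroblasts of both carcinoma stages are called CAFs (cancer-associated fibroblasts). None of these mice received a treatment named in the labels. Each stage has its own age, so stage and age cannot be told apart.

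ATP leaves damaged, dying or stressed cells, partly through pannexin channels, and acts outside them as a danger signal. P2X receptors are ion channels opened by ATP, whereas P2Y receptors couple ATP, ADP, UDP and related nucleotides to G proteins. P2X7 opens at high ATP and lets potassium out of the cell, which is a known trigger of the NLRP3 inflammasome, while the enzymes CD39 and CD73 on the cell surface break ATP down to AMP and then to adenosine, which dampens immune cells.

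Promoter sequences are given for P2rx7 and Nt5e, the members that differed in CAFs, in either direction, and have a RefSeq promoter here. That of P2rx4, which lies beside P2rx7 on chromosome 5, is given too. RefSeq promoters (GRCm38.p6, 250 bases before and 50 after a gene start) matched 7 members with 13 starts. Capitals mark letters that match a searched motif on either strand: the GC box GGGCGG, found in 35.7% of the 32851 promoters in the table, the AP-1 motif TGANTCA (7.81%) and the PU.1 motif GAGGAAGT (3.2%). The CRE motif TGACGTCA (1.79%), the HIF core ACGTG (19.6%) and the TATA box TATAAA (13.6%) were searched too and have no match in these windows. P2rx7 has 2 listed starts, at chr5:122643677-122643976 and chr5:122650133-122650432, both on the plus strand, P2rx4 is at chr5:122707294-122707593 on the plus strand, and Nt5e is at chr9:88327359-88327658 on the plus strand.
P2rx7 promoter 1: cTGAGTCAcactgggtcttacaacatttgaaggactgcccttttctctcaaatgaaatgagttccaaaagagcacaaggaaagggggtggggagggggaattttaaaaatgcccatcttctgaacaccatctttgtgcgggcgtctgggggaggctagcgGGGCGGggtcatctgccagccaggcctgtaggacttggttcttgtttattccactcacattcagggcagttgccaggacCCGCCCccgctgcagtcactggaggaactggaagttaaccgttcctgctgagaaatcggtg
P2rx7 promoter 2: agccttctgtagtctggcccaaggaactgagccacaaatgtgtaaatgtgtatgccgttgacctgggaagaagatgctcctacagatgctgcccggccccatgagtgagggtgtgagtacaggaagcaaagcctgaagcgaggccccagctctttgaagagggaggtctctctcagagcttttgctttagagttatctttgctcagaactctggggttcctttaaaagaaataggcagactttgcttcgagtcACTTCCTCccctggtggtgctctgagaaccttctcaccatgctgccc
P2rx4 promoter: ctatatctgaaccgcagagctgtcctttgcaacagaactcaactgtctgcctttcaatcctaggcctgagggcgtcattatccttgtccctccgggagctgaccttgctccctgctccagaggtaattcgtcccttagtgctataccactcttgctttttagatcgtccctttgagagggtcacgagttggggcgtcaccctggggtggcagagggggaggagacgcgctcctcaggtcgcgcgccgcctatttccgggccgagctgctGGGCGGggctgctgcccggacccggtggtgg
Nt5e promoter: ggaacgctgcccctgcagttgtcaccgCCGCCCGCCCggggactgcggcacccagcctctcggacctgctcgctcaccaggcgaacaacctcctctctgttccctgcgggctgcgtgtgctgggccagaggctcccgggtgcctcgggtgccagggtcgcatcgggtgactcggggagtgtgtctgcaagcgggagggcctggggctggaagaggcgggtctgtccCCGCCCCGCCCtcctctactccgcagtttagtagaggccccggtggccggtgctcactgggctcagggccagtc
The P2rx7 windows differ: the first holds 2 GC boxes and 1 AP-1 match, the second 1 PU.1 match. P2rx4 has 1 GC box and Nt5e has 4, which overlap in pairs. The probe sets do not tell which start was used, and a match of letters is no evidence of binding.

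The deposited values are log2 expression summarised by the robust multi-average method, so a difference of 1 is a doubling, and levels of different genes cannot be set against each other. A tie between 2 arrays was found: in all 35399 probe sets the mean of normal D2 with advanced carcinoma D11 equals the mean of the remaining 9 arrays (their sum matches 2 times that mean to within 0.000144), and no source used here names a step that would do this. These arrays are therefore not independent replicates, and each call of a member in CAFs is given with and without them. The sort took CD140a-positive cells that lacked the product of Adgre1, a macrophage antigen, and, per the labels, EpCAM. Pdgfra, which encodes CD140a, was at 9.21 to 11.01 in CAFs and 10.80 to 11.35 in the other arrays, with carcinoma D4 the lowest. Markers of other cells were nevertheless higher in CAFs. Adgre1 was at 5.18 to 7.66 against 3.73 to 5.07, and Epcam at 8.69 to 9.91 against 6.02 to 8.01. Of the macrophage list 11 of 12 genes rose, C1qb and Cd14 among them, and of the luminal epithelium list 15 of 16 rose, Ehf and Wfdc18 among them.

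In CAFs against normal and hyperplasia fibroblasts (6 against 5 arrays), the ATP receptor P2rx7 rose 2.29-fold and the UDP receptor P2ry6 rose 3.15-fold, while Nt5e, which encodes CD73, fell 2.43-fold. The other 5 members, P2rx4, P2ry2, P2ry14, Panx1 and Entpd1, did not pass the test. In limma, 3 of 8 members passed an adjusted p under 0.05, where 24.9% of all genes did. Higher were 2 of 8, against 12% of all genes, and lower was 1 of 8, against 12.8%. With so broad a background the count of 3 describes these genes and says nothing particular to them as a group, and their median difference was -0.11 against -0.04 over all genes. Centring each array on its median shifted the share of higher genes among all calls from 48.4% to 27.6% and left the same 3 members called. These 3 members were also called in the fit without any single array. P2rx7 is a gene the study itself singled out as raised in these samples, so its direction is not independent evidence.

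**Figure D1:**
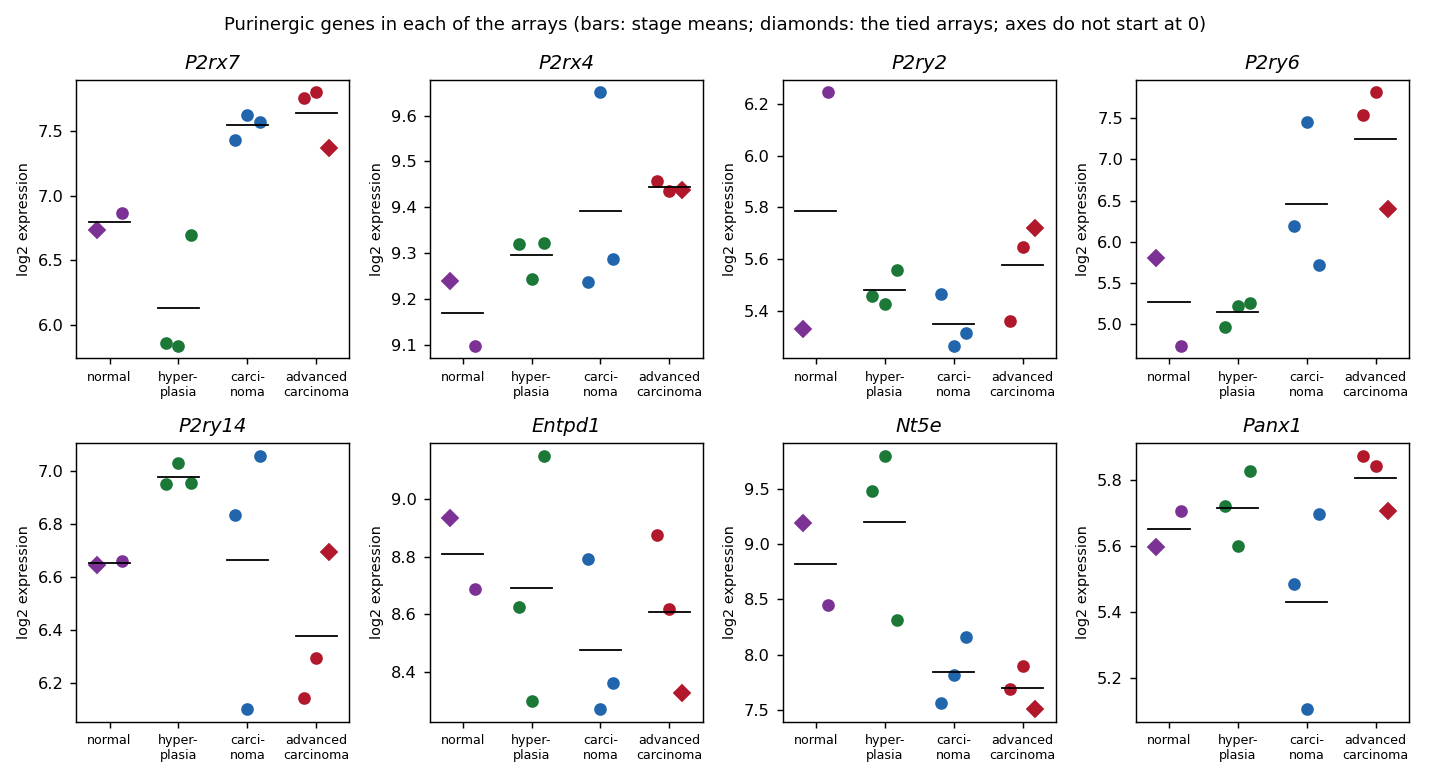
Log2 expression (vertical axes, which differ between panels and do not start at 0) of the 8 measured genes, 1 point per array, with stages along the horizontal axis and stage means as bars; the tied arrays, D2 and D11, are diamonds. P2rx7 lies at 7.37 to 7.80 in all 6 CAF arrays and at 5.84 to 6.87 in the others, and Nt5e lies lower in all 6.

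P2rx7, the ATP-gated channel upstream of NLRP3, was at 6.73 and 6.87 in normal D2 and D5, at 5.86, 5.84 and 6.70 in hyperplasia D6, D7 and D12, at 7.44, 7.63 and 7.58 in carcinoma D3, D4 and D10, and at 7.76, 7.80 and 7.37 in advanced carcinoma D8, D9 and D11. Every CAF array lay above every other array, with a gap of 0.50 between them, while hyperplasia D12 stood nearer to the normal arrays than to D6 and D7. The mean was 7.59 ± 0.17 in CAFs (SD, n = 6) and 6.40 ± 0.51 in the other arrays (SD, n = 5), a difference of 1.20 (95% interval 0.76 to 1.63, limma adjusted p = 0.00201). With a model term for the tied arrays it was 1.20 (adjusted p = 0.00420), and in a fit on the other 9 arrays 1.32 (adjusted p = 0.00592). By stage the order was hyperplasia (6.13 ± 0.49, n = 3), normal (6.80 ± 0.10, n = 2), carcinoma (7.55 ± 0.10, n = 3) and advanced carcinoma (7.64 ± 0.24, n = 3). None of these neighbouring stages differed after adjustment, though the step across them from hyperplasia to carcinoma did.

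P2rx4, a second ATP-gated channel that is found largely in lysosomes, was at 9.24 and 9.10 in normal, 9.32, 9.24 and 9.32 in hyperplasia, 9.24, 9.65 and 9.29 in carcinoma, and 9.46, 9.44 and 9.44 in advanced carcinoma, arrays in the order above. The groups overlapped, although 4 of 6 CAF arrays lay above every other array. The difference was 0.17 (95% interval 0.01 to 0.34, adjusted p = 0.112). Its interval excludes a change of the size seen in P2rx7. Within each array, P2rx7 less P2rx4 was higher in CAFs by 1.02 on the log2 scale, a description of this pair of neighbouring genes, which was chosen after the values were seen.

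P2ry6, the receptor for UDP, was at 5.80 and 4.74 in normal, 4.96, 5.22 and 5.25 in hyperplasia, 6.20, 7.45 and 5.72 in carcinoma, and 7.54, 7.81 and 6.40 in advanced carcinoma. The values fell into levels that do not follow stage: carcinoma D4 and advanced carcinoma D8 and D9 were highest, and carcinoma D10 lay below normal D2, so 5 of 6 CAF arrays exceeded every other array. Its mean was 6.85 ± 0.86 over the CAF arrays (SD, n = 6) and 5.20 ± 0.40 over the rest (SD, n = 5), a difference of 1.66 (95% interval 0.83 to 2.49, adjusted p = 0.0100). It was 1.66 with the term for the tied arrays (adjusted p = 0.0171) and 1.90 on the other 9 arrays (adjusted p = 0.0173). From the lowest the stages were ordered hyperplasia (5.15 ± 0.16), normal (5.27 ± 0.75), carcinoma (6.46 ± 0.90) and advanced carcinoma (7.25 ± 0.75), and no neighbours differed after adjustment.

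The receptor for ATP and UTP, P2ry2, was at 5.33 and 6.24 in normal, 5.46, 5.43 and 5.56 in hyperplasia, 5.47, 5.27 and 5.31 in carcinoma, and 5.36, 5.65 and 5.72 in advanced carcinoma. Normal D5 stood alone above the rest, and the other arrays lay within the range of 5.27 to 5.72. CAFs differed by -0.14 (95% interval -0.48 to 0.20, adjusted p = 0.539), and its mean of 5.53 is below the median of all genes, 5.64. The receptor for UDP-glucose, P2ry14, was at 6.64 and 6.66 in normal, 6.95, 7.03 and 6.95 in hyperplasia, 6.83, 6.10 and 7.06 in carcinoma, and 6.14, 6.29 and 6.70 in advanced carcinoma. Its lowest arrays, carcinoma D4 and advanced carcinoma D8 and D9, are the highest ones of P2ry6. CAFs differed by -0.33 (95% interval -0.71 to 0.06, adjusted p = 0.198), and by 0.0147 in a fit without those 3 arrays. Leaving out its own lowest arrays raises the CAF mean by construction.

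Panx1, which encodes the ATP-permeable channel pannexin 1, was at 5.60 and 5.71 in normal, 5.72, 5.60 and 5.83 in hyperplasia, 5.48, 5.11 and 5.70 in carcinoma, and 5.87, 5.84 and 5.71 in advanced carcinoma. Carcinoma D4 was the lowest array and the groups overlapped. The difference in CAFs was -0.07 (95% interval -0.35 to 0.20, adjusted p = 0.708), which bounds a change in the value of this probe set well below that of P2rx7. Its mean of 5.65 is close to the median of all genes, 5.64.

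Entpd1, which encodes CD39, the enzyme that cuts ATP and ADP to AMP, was at 8.93 and 8.69 in normal, 8.62, 8.30 and 9.15 in hyperplasia, 8.79, 8.27 and 8.36 in carcinoma, and 8.87, 8.62 and 8.33 in advanced carcinoma. CAFs differed by -0.20 (95% interval -0.55 to 0.15, adjusted p = 0.392). Its highest arrays were hyperplasia D12 and normal D2, which were also the highest for the T and NK cell list, at a mean log2 of 8.70 and 8.06 against 5.39 to 7.30 elsewhere. D12 and D2 were the highest for the B cell, pan-leukocyte and dendritic cell lists too, so this is not particular to T and NK cells. In a fit without D12 and D2, chosen after the data were seen, the Entpd1 difference was 0.0041. Leaving out its own highest arrays lowers the mean of the normal and hyperplasia arrays by construction, so that value does not bear on any of these lists.

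Nt5e encodes CD73, which makes adenosine from AMP, and its values were 9.20 and 8.45 in normal, 9.48, 9.80 and 8.31 in hyperplasia, 7.56, 7.81 and 8.16 in carcinoma, and 7.69, 7.90 and 7.51 in advanced carcinoma. All CAF arrays lay below all others, but the gap was 0.16, and hyperplasia D12 and normal D5 were close to carcinoma D10. The mean was 7.77 ± 0.24 in CAFs (SD, n = 6) and 9.05 ± 0.65 in the other arrays (SD, n = 5), a difference of -1.28 (95% interval -1.84 to -0.72, adjusted p = 0.00529). With the term for the tied arrays it was -1.28 (adjusted p = 0.00976), and on the other 9 arrays -1.19 (adjusted p = 0.0281). The stages ran from advanced carcinoma (7.70 ± 0.20) and carcinoma (7.84 ± 0.30) to normal (8.82 ± 0.53) and hyperplasia (9.20 ± 0.78). Advanced carcinoma did not differ from carcinoma, nor hyperplasia from normal, by more than this spread.

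Of the 8 members 2 had CAF arrays that did not overlap the others, P2rx7 above and Nt5e below, where 14.9% of all genes had groups without overlap.

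**Figure D2:**
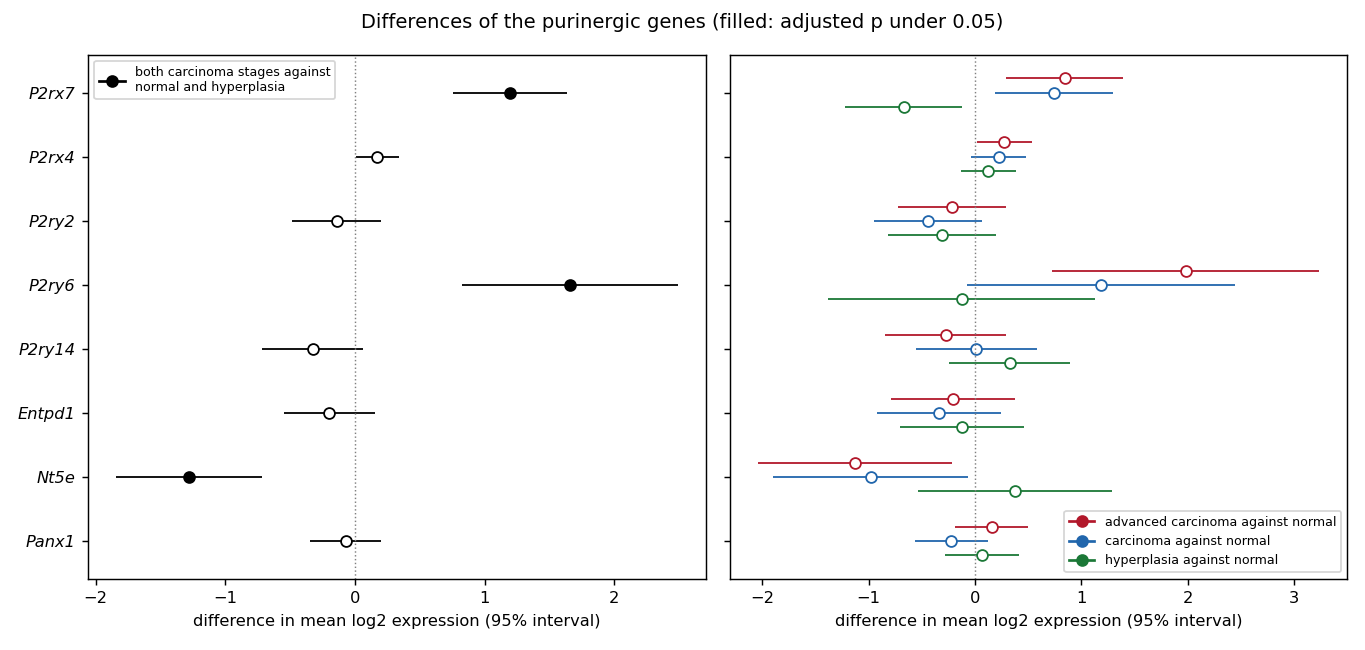
Difference in mean log2 expression (horizontal axes) with its 95% interval for the 8 genes; the left panel compares CAFs with normal and hyperplasia fibroblasts and the right panel each MMTV-PyMT stage with normal, and filled points have an adjusted p under 0.05. P2rx7 (1.20), P2ry6 (1.66) and Nt5e (-1.28) are filled on the left, and no point is filled on the right.

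Set against the 2 normal arrays alone, no member passed the adjusted threshold at any stage. In advanced carcinoma 0 of 8 passed in limma, where 5.61% of all genes did, and 4 had an unadjusted p under 0.05. The largest differences were 1.98 for P2ry6 (95% interval 0.72 to 3.24, adjusted p = 0.0726), -1.13 for Nt5e (-2.04 to -0.21, adjusted p = 0.142) and 0.84 for P2rx7 (0.29 to 1.39, adjusted p = 0.0809). The threshold of the methods, an unadjusted p under 0.05 with a fold over 1.5, was applied here to the limma p. Under it these 3 of 8 passed, against 10.6% of all genes. In carcinoma 0 of 8 passed (0.938% of all genes), with P2rx7 at 0.75 (0.19 to 1.30, adjusted p = 0.169), Nt5e at -0.98 (-1.90 to -0.07, adjusted p = 0.253) and P2ry6 at 1.18 (-0.07 to 2.44, adjusted p = 0.301). The sizes of Nt5e and P2ry6 moved with single arrays: Nt5e was at -0.61 without normal D2, and P2ry6 at 0.65 without normal D5 and 0.69 without carcinoma D4. In advanced carcinoma Nt5e was at -0.66 without the tied arrays. The methods' threshold took 2 of 8 in carcinoma, P2rx7 and Nt5e, against 6.98% of all genes. The one-way contrasts of the methods, with an unmoderated spread, also called 0 members after adjustment in each of these comparisons.

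Hyperplasia did not differ from normal in any member after adjustment (0 of 8 in limma, 0% of all genes), and 1 had an unadjusted p under 0.05. That gene was P2rx7, which differed by -0.67 (95% interval -1.22 to -0.12, adjusted p = 0.999), and it was the 1 of 8 that met the methods' threshold, as 1% of all genes did. Carcinoma against hyperplasia gave 2 of 8 (9.25% of all genes): P2rx7 rose by 1.42 (adjusted p = 0.0101), and Nt5e fell by 1.36 (adjusted p = 0.0494). The call of Nt5e lies at the threshold. It was lost with the term for the tied arrays (adjusted p = 0.0779) and on the other 9 arrays (0.0860), where P2rx7 passed (0.0198 and 0.0316). It was also lost without any one of the 9 arrays other than hyperplasia D12 and carcinoma D10, with adjusted p from 0.0585 to 0.155, and P2rx7 missed it when the arrays of these stages alone were fitted (adjusted p = 0.0841). Between advanced carcinoma and carcinoma 0 of 8 passed in limma and by the methods' contrasts (0% of all genes), and the 1 unadjusted p under 0.05 was that of Panx1, higher in advanced carcinoma by 0.38 (adjusted p = 0.884). In the F test over the 4 stages, P2rx7 alone passed (adjusted p = 0.0113), 1 of 8 against 9.04% of all genes. P2ry6 and Nt5e were at 0.0669 and 0.0624.

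In cells sorted in bulk, fewer cells of a type and less RNA per cell cannot be told apart. The macrophage list, a mean over 12 genes, ran from 4.84 to 6.12 in normal and hyperplasia arrays and from 6.26 to 8.03 in CAFs. Carcinoma D4 and advanced carcinoma D8 and D9 were at 7.70 to 8.03, and the remaining CAF arrays at 6.26 to 6.50. P2ry6 followed the list array by array, and the genes most like it over the 11 arrays were C1qc (Pearson r = 0.996), Csf1r (0.994) and Igsf6 (0.990), C1qc being a complement gene and Csf1r a growth factor receptor, both typical of macrophages. In a fit on the 8 arrays other than those 3, chosen after the data were seen, P2ry6 differed by 0.91 (adjusted p = 0.0490), P2rx7 by 1.06 (adjusted p = 0.0391) and Nt5e by -1.31 (adjusted p = 0.0523). These 3 arrays were also the highest of P2ry6 itself and, at 7.63 to 7.80, of P2rx7. Leaving them out lowers the CAF mean of both genes by construction.

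The genes most like P2rx7 were Pdcd6ip (r = 0.988), Pmm2 (0.977) and Runx1 (0.971), and those most like Nt5e were Dact2 (0.965), Limch1 (0.954) and Lgi1 (0.954), each the highest of 9969 genes searched. These correlations are descriptions over 11 arrays that share their stages and cell makeup.

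**Figure D3:**
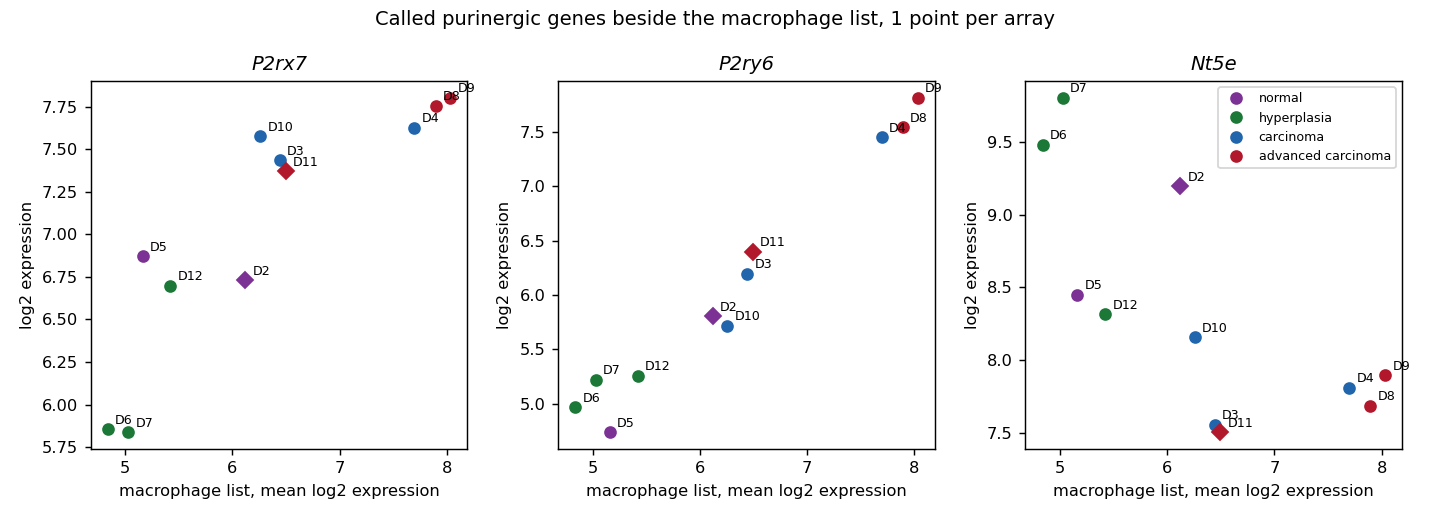
Log2 expression of P2rx7, P2ry6 and Nt5e (vertical axes) against the mean log2 expression of 12 macrophage markers (horizontal axis), 1 point per array, labelled by array and coloured by stage, with diamonds for the tied D2 and D11. The list mean runs from 4.84 to 8.03, P2ry6 from 4.74 to 7.81, P2rx7 from 5.84 to 7.80 and Nt5e from 7.51 to 9.80, and carcinoma D4 and advanced carcinoma D8 and D9 lie farthest to the right.

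The luminal epithelium list, over 16 genes, was at 8.59 to 9.72 in CAFs and 6.23 to 7.74 in the other arrays, so it did not overlap either, and its part in the changes of P2rx7, P2ry6 and Nt5e was not tested. The T and NK cell list was at 5.39 to 7.07 in CAFs and 6.22 to 8.70 in the others, with 4 of 9 measured genes lower, Cd8a and Cd2 among them. In a fit without normal D2 and hyperplasia D12, where this list was highest, P2rx7 differed by 1.41 (adjusted p = 0.00390), P2ry6 by 1.88 (0.0226) and Nt5e by -1.47 (0.00722). Among normal and hyperplasia arrays D2 and D12 were the highest for P2ry6 and lay above D6 and D7 for P2rx7. D12 was the lowest for Nt5e. Leaving both out widens these differences by construction, so the values do not bear on the T and NK cell list. Counts in the marker lists are read beside 12% of all genes higher and 12.8% lower. Of the fibroblast list 2 of 13 genes fell, Pi16 and Cd34, which is near that share. All 13 had a negative difference, with a median of -0.59 against -0.04 over all genes. The mean of that list was 9.37 to 10.98 in CAFs and 10.88 to 11.27 in the others, with carcinoma D4 the lowest, and its part in the lower values of Nt5e, Entpd2 and Dpp4 was not tested. Of the other marker lists, some genes passed in 1 direction or both: 3 of 7 basal epithelial genes rose (Trp63 and Krt5 among them), 2 of 10 pan-leukocyte genes rose (Fcer1g and Tyrobp), 3 of 5 B cell genes fell (Cd79b and Ms4a1 among them), and 5 of 9 adipocyte genes fell (Pparg and Lpl among them). Among 10 dendritic cell genes 1 rose and 3 fell (Flt3 and Zbtb46 among the latter), among 10 neutrophil genes Ltf rose and Ly6g fell, among 7 pericyte genes Mcam rose and Abcc9 fell, and of 10 endothelial genes Tek fell while Emcn did not pass.

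The rest of the pathway was read from lists of 41 further genes, of which 37 were measured. In CAFs 10 of these 37 rose and 7 fell, a total of 17 against 24.9% of all genes, with a median difference of -0.0025. With the term for the tied arrays 16 of the 17 passed, where 4050 of all 19938 genes did, against 4961 in the main fit. After each array was centred on its median the split was 9 and 10, and 7062 of all genes passed. In the fit without carcinoma D4 and advanced carcinoma D8 and D9 it was 7 and 3. Only 1908 of all genes passed in that fit, so calls lost there are not particular to these genes. The genes named are the 12 with the smallest p, and in 10 of them the CAF arrays did not overlap the others. That count is high by selection, since the genes were picked on the same comparison, and 14.9% of all genes had groups without overlap.

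Other P2Y receptors moved with P2ry6 in part. Of 4 measured, the ADP receptors P2ry13 (1.19, adjusted p = 0.00359) and P2ry12 (0.82, adjusted p = 0.0128) rose and none fell, with a median of 0.39. Over all genes 12% rose and 12.8% fell. P2ry13 was at 5.02 to 6.34 in CAFs and 4.36 to 4.98 in the other arrays, and its highest arrays were again carcinoma D4 and advanced carcinoma D8 and D9. In the fit without those 3 arrays P2ry13 differed by 0.78 (adjusted p = 0.0264) and P2ry12 by 0.44 (adjusted p = 0.0464). The same arrays were the highest of P2ry12, so leaving them out lowers both differences by construction. P2ry1, another ADP receptor, differed by -0.57 without passing (adjusted p = 0.0771). Of 5 other P2X channels none rose and 2 fell, P2rx1 (-0.34) and P2rx6 (-0.27), with a median of -0.14. Neither P2rx1 nor P2rx6 passed in the fit without those 3 arrays, and P2rx1 did not pass without normal D2 and hyperplasia D12. P2rx1, P2rx6, P2ry12 and P2ry13 were among the genes left out as dim in 1 alternative. P2rx7 was the 1 P2X gene measured that passed as higher.

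Of 11 genes for other routes of ATP release, 1 rose and 2 fell, where 12% of all genes rose and 12.8% fell. These counts say nothing particular to the list. The connexin Gjb2, of gap junctions and hemichannels, rose by 2.56 (adjusted p = 0.000265). It was at 7.55 to 8.88 in CAFs against 4.96 to 6.31. Gjb2 was highest in carcinoma D4, as was the luminal epithelium list (9.72). Among CAFs it was lowest in advanced carcinoma D9 (7.55), where that list was at 9.41, whereas the list was lowest in carcinoma D10 (8.59). The part of the list in the change of Gjb2 was not tested. The connexin Gjc1 fell by 0.74 (adjusted p = 0.00173) and Calhm2, of a family of ATP-permeable channels, fell by 0.95 (adjusted p = 0.00597). Gja1, the main connexin of fibroblasts, differed by -0.60 (adjusted p = 0.120), and the vesicular nucleotide transporter Slc17a9 by 0.07 (95% interval -0.14 to 0.28).

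The enzymes upstream of adenosine moved in different directions. Of 6 measured beside Entpd1 and Nt5e, 3 rose and 1 fell, where 12% of all genes rose and 12.8% fell. Entpd2, which cuts ATP to ADP, fell by 1.14 (adjusted p = 0.00418), from 8.63 to 9.27 in normal and hyperplasia arrays to 7.05 to 8.30 in CAFs. Alpl, the alkaline phosphatase of many tissues, rose by 1.06 (adjusted p = 0.00708), Enpp3, which cuts ATP to AMP and pyrophosphate, rose by 0.38 (adjusted p = 0.0110), and Entpd3 rose by 0.56. In the fit without carcinoma D4 and advanced carcinoma D8 and D9, Alpl differed by 0.71 (adjusted p = 0.0695) and did not pass. Those were the highest arrays of Alpl, so leaving them out lowers its difference by construction. Entpd3 did not pass in that fit either, and it was among the genes left out as dim in 1 alternative.

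The list of genes for adenosine clearance and transport, which includes nucleoside transporters and a binding protein, held the largest difference. Of 11 measured, 4 rose and 2 fell, where 12% of all genes rose and 12.8% fell. Slc28a3, which carries nucleosides into cells with sodium, rose by 3.15 (adjusted p = 0.000292). It was at 8.09 to 9.41 in CAFs against 4.62 to 6.55. It was highest in carcinoma D4 and lowest among CAFs in carcinoma D10. The luminal epithelium list was likewise highest in D4 (9.72) and lowest among CAFs in D10 (8.59), and its part in the change of Slc28a3 was not tested. The equilibrative transporters Slc29a4 (1.37, adjusted p = 0.00205) and Slc29a3 (0.51, adjusted p = 0.00150) rose as well, and so did Slc29a2 (0.26, adjusted p = 0.0329). Slc29a2 did not pass with the term for the tied arrays (adjusted p = 0.0508), on the other 9 arrays, or in the fit without D4, D8 and D9. Slc29a4 was at 3.95 to 4.44 in normal and hyperplasia arrays, below the median of all genes (5.64). Slc29a4 and Slc29a2 were among the genes left out as dim in 1 alternative. Dpp4, the surface protein CD26 that binds adenosine deaminase, fell by 1.09 (adjusted p = 0.0132) and the phosphorylase Pnp fell by 0.88. Dpp4 was lowest in carcinoma D4 (9.20) and next lowest in advanced carcinoma D9 and D8. In the fit without D4, D8 and D9 it differed by -0.60 (adjusted p = 0.101). Leaving out its own lowest arrays shrinks that difference by construction. Pnp did not pass in that fit either. Adenosine kinase (Adk, -0.07, 95% interval -0.27 to 0.12) and adenosine deaminase (Ada, -0.20, -0.46 to 0.06) did not pass.

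**Figure D4:**
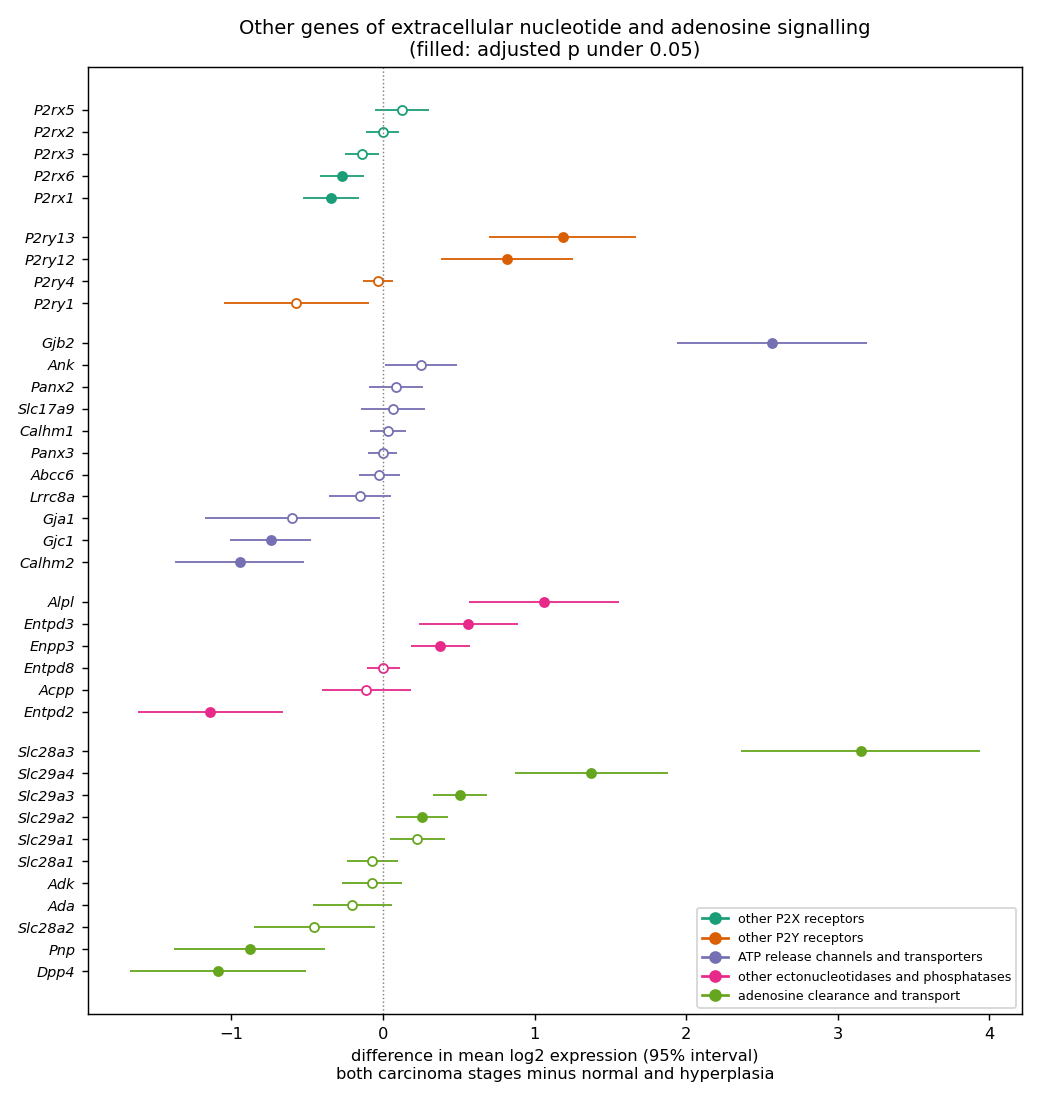
Difference in mean log2 expression between CAFs and normal and hyperplasia fibroblasts (horizontal axis) with its 95% interval for the 37 other genes, grouped by role and coloured by group; filled points have an adjusted p under 0.05. Slc28a3 (3.15) and Gjb2 (2.56) lie farthest to the right, and Entpd2 (-1.14) and Dpp4 (-1.09) farthest to the left.

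Like the members, most of these genes did not pass against normal arrays alone. Of the 37, 3 rose and none fell in advanced carcinoma (5.61% of all genes passed there), 2 rose in carcinoma (0.938%), and 0 passed in hyperplasia (0%), where 1 had an unadjusted p under 0.05. Carcinoma against hyperplasia gave 3 higher and 3 lower (9.25% of all genes). Adora1, Adora3, Enpp1 and Cd38 have no probe set with their symbol alone and were not analysed here.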

How the data were processed

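The 11 arrays were normalised by the authors with the robust multi-average method (RMA) in Partek 6.5, and the deposited values are log2 expression of 35399 probe sets. A genome build is not given in the sources used here. Array medians ran from 5.28 to 5.39.

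Only probe sets with a single gene symbol (21789) were read. Those with several symbols (1621) or with none here (11989) were left aside. Where a gene had several probe sets (999 genes) the brightest by mean stood for it, which gave 19938 genes. Groups were taken from the sample titles. In limma 3.58.1 (R 4.3.3), CAFs were compared with normal and hyperplasia arrays in a fit with 2 groups, and stages in a fit with 4, over all 11 arrays. P-values were adjusted by Benjamini-Hochberg over all genes, with a threshold of 0.05. The study's own test was a one-way ANOVA, at an unadjusted p under 0.05 and a fold over 1.5. Counts at the methods' threshold given here apply it to the limma p. The members and lists were chosen with earlier results of these data known. Every member was named, and of other pathway genes the 12 with the smallest p in CAFs. The sorted antigens, Ptprc and the 2 markers of each list with the smallest p were named too, and the 3 genes with the highest Pearson r to a member, among genes at or above the median level. The pipeline was tested on simulated data. Precision is limited by how few arrays there are.

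Alternatives tried were quantile normalization, arrays centred on their medians, leaving out dim genes, every probe set, ANOVA contrasts, the methods' threshold, limma-trend with robust estimates, array weights, the arrays of the compared stages only, a term for the tied arrays (normal D2, advanced carcinoma D11), a fit without them, and each array left out in turn. Fits without carcinoma D4, advanced carcinoma D8 and D9, and without normal D2 and hyperplasia D12, were added after the data were seen.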

Additional observations from a re-analysis of the deposited data

Results flagged for a closer look

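Among 16 groups tested for a sample that stands apart (the 8 members in CAFs and in normal and hyperplasia arrays), 1 did: P2ry2 in normal D5, at a log2 value of 6.24, whose gap to the nearest of the other 4 arrays was 0.751 of the group's range (n = 5). Chance flags about 1 in 20 groups.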

How the results depend on the processing

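Of 1217 values of members under the alternatives, 1140 kept their direction and their side of the threshold, 18 lost their call, 31 gained one and 28 changed sign, all 28 in values not called. The cause of these changes was not tested, apart from fewer arrays or genes where an alternative removes them. The 3 calls in CAFs held under every alternative except that Nt5e missed the threshold without carcinoma D4, advanced carcinoma D8 and D9 (-1.31, adjusted p = 0.0523). Adjusted p over its alternatives ran from 0.00121 to 0.0391 for P2rx7, 0.00272 to 0.0490 for P2ry6 and 0.00145 to 0.0523 for Nt5e. Other pathway genes called in CAFs were 17, and 10 with dim genes removed, which drops 7 of the called genes from the test, or in the 8-array fit, with 15 to 20 under the remaining alternatives except the methods' threshold (12). The 8-array fit called 1908 of all 19938 genes, against 4961 in the main fit. It also moved the share of higher calls among all genes from 48.4% to 60.5%. Median centring moved that share from 69.5% to 56.3% in advanced carcinoma against normal and from 52.8% to 42.2% in carcinoma against hyperplasia.

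Members called in advanced carcinoma against normal were 0, against 3 at the methods' threshold, 4 with array weights, 2 in the fit of these stages only, and 0 to 2 with each array left out: without hyperplasia D12 P2rx7 and Nt5e passed (adjusted p = 0.0166 and 0.0459), and without carcinoma D4 P2rx4 and P2ry6 did (0.0239 and 0.0157). Carcinoma against normal gave 0, against 2 at the methods' threshold and 0 to 1 with each array left out (P2rx7 without hyperplasia D12, adjusted p = 0.0465), and hyperplasia against normal 0 and 1 at that threshold. Carcinoma against hyperplasia gave 2, but 1 after quantile normalization, with every probe set, by ANOVA contrasts, with the term for the tied arrays and without them, 0 in the fit of these stages only, and 1 to 2 with each array left out. Advanced carcinoma against carcinoma gave 0, and 3 with array weights. The test over all stages gave 1, but 2 with median-centred arrays, 0 by ANOVA, 4 with array weights, and 1 to 3 with each array left out. There P2ry2 joined without normal D2, Nt5e without hyperplasia D12, P2ry6 with P2ry14 without carcinoma D4, and P2ry6 without carcinoma D10 or advanced carcinoma D11. The methods' threshold gives no value for that test, and the fit of the compared stages only gives none for it or for CAFs. P2ry2 lies below the level at which dim genes were removed and has no value there.

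For values that changed sign, the range with each array left out is given where 1 array decides. In CAFs they were P2ry2 (0.0122 with array weights, 0.0191 without normal D5, range -0.2092 to 0.0191), Panx1 (0.0325 with array weights, 0.0310 without carcinoma D4, range -0.1226 to 0.0310), P2ry14 (0.0147 in the 8-array fit) and Entpd1 (0.0041 without normal D2 and hyperplasia D12). Against normal, in advanced carcinoma they were Entpd1 (0.0585 without the tied arrays) and P2ry2 (0.2447 without normal D5, range -0.6682 to 0.2447), and in carcinoma P2ry14 (-0.0368 median-centred, -0.0729 without carcinoma D3, -0.1837 without D10, range -0.1837 to 0.2934) and P2ry2 (0.0177 without normal D5, range -0.8952 to 0.0177). In hyperplasia they were Panx1 (-0.0018 with the tied term), P2ry6 (0.4076) and Entpd1 (0.0036) both without the tied arrays and without normal D2 alone, P2ry2 (0.1495 without normal D5) and Entpd1 (0.0765 without hyperplasia D7), with ranges of -0.6569 to 0.4076, -0.7634 to 0.1495 and -0.3488 to 0.0765 for P2ry6, P2ry2 and Entpd1. In carcinoma against hyperplasia they were P2rx4 (-0.0312 with array weights, -0.0333 without carcinoma D4, range -0.0333 to 0.1738) and Entpd1 (0.0255 with array weights, 0.0136 without hyperplasia D12, range -0.4116 to 0.0136). Between the carcinoma stages they were Entpd1 (-0.0105 with array weights, -0.0019 without advanced carcinoma D8, range -0.0019 to 0.2901), Nt5e (0.0614 with array weights, 0.0114 without carcinoma D10, range -0.2884 to 0.0114) and P2rx4 (-0.0251 without carcinoma D3, range -0.0251 to 0.182).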

Other observations

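The genes most like the members that did not pass, by Pearson r over the 11 arrays, were Pex10 (0.973), H1f2 (0.971) and Atpaf1 (0.970) for P2rx4, Manea (0.954), Ggt5 (0.935) and Casp9 (0.933) for P2ry14, and Pagr1a (0.966), Spsb3 (0.960) and Spats2l (0.932) for Panx1. For Entpd1 they were Ddx47 (0.936), Cd40 (0.932), a receptor of B cells and other antigen-presenting cells, and Snord57 (0.931). P2ry2 had the lowest best match, Srm (0.898), followed by Zbtb21 (0.872) and Znfx1 (0.863). The highest of 9969 values is high by selection, and no test was made.

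Ptprc, the pan-leukocyte antigen CD45, which the sort for these arrays did not gate on in the sources used here, was at 10.10 and 8.14 in normal D2 and D5, at 8.45, 9.35 and 10.42 in hyperplasia D6, D7 and D12, and at 7.60 to 9.41 in CAFs. The groups overlapped, and the difference of -0.82 did not pass (limma adjusted p = 0.191).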
